A study of Mus musculus with 11 samples.

Results

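The hearts described here are those of HMGN5 transgenic mice, followed from the newborn to the adult animal. All 6 arrays labelled transgenic, of 11 arrays in the series, were taken by their labels alone: 3 of newborn and 3 of adult left ventricle. Array values were deposited on the log2 scale, so a difference of 1 is a doubling, and 18194 genes were tested with 1 probe set each. The other 5 arrays, 3 of control adults and 2 of control newborns, shared the estimate of the spread and served to ask where the change of transgenic hearts differed.

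All mice were on the C57BL/6 background. Transgenic mice carried a mouse Hmgn5 cDNA with a FLAG tag, placed behind a floxed LacZ cassette under the CAG promoter, and an alphaMHC-cre transgene that removes the cassette in the heart. The alpha myosin heavy chain promoter is active in heart muscle cells, so fibroblasts, vessels and blood cells of the same ventricle are not its targets. Controls were labelled wild-type; whether they carried cre or the floxed cassette is not given in the sources used here, and the part of cre itself in any difference was not tested. The labels give neither days of age nor sex. They call the arrays biological replicates without saying whether an array was 1 animal or a pool.

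HMGN5 is a nucleosome-binding protein that competes with linker histone H1 and loosens compacted chromatin. In the weeks after birth the mouse heart stops dividing its muscle cells, exchanges fetal for adult contractile proteins, turns from glucose and lactate to fatty acids as fuel, and gains resident immune cells. Several fetal genes, the natriuretic peptides and skeletal actin among them, are known to return in adult hearts under load.

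Ventricular muscle markers had list means of 12.62 to 12.77 in transgenic newborns and 12.03 to 12.10 in transgenic adults. Of 10 measured 2 fell, the transcription factors Hey2 and Irx4, and 0 rose (limma adjusted p under 0.05), beside 19.7% of all genes each way. Myl2, the ventricular myosin light chain, read 14.19, 14.21 and 14.20 in transgenic newborns and 14.13, 14.21 and 14.12 in adults, close to the highest value of each array (14.21 to 14.37). Pairs of arrays correlated across genes at 0.994 to 0.997 among transgenic newborns and at 0.975 to 0.992 among transgenic adults. The median SD of a gene was 0.10 in newborns and 0.20 in adults, so adult means are the less precise. Transgenic adult replicate 3 stood apart. Its 18S ribosomal control probe sets read 12.18, against 8.51 and 7.64 in the other adults and 10.05 to 10.22 in newborns, and its Malat1, a nuclear long RNA, read 13.04 against 8.15 and 8.45. Adult replicate 3 of the control group read likewise (11.89 and 12.75). In the 18S signal newborn arrays thus lay between adult replicates 1 and 2 and adult replicate 3. A difference in how arrays of each age were processed cannot be told apart from age. By the Y-linked gene Eif2s3y, transgenic adult replicate 1 and newborn replicates 2 and 3 held male RNA (8.64 to 9.10, against 3.09 to 3.83 in the others), so both ages held both sexes. Xist, an RNA of female cells, read 5.44 in that adult array and 8.08 and 6.90 in those newborn arrays, against 11.52 to 12.20 in the other transgenic arrays. Whether those newborn arrays also held some female RNA was not tested. The Hmgn5 probe set read 8.56, 8.84 and 8.69 in newborns and 8.29, 8.26 and 8.71 in adults, and these overlapped (change -0.28, SE 0.14, limma adjusted p = 0.146). In control newborns this probe set read 8.85 and 8.81, and in control adults 8.44, 8.77 and 8.52, so it showed no excess in transgenic hearts. Whether it reads the transgene is not given in the sources used here, so it does not check the labels.

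Between birth and adulthood 7161 of the 18194 genes (39.4%) changed in transgenic hearts at a limma adjusted p under 0.05. Rising genes numbered 3579 (19.7%) and falling genes 3582 (19.7%). The rising count was 2329 without transgenic adult replicate 1, 2219 without newborn replicate 1 and 2218 without newborn replicate 2. Large changes were more often falls: 1216 genes (6.68%) fell over 2-fold and 728 (4.00%) rose over 2-fold, and 36 fell against 8 that rose over 16-fold. In 5451 genes (30.0%) all adult arrays lay above all newborn arrays, and in 4487 (24.7%) all lay below. The median change over all genes was 0.09. Counts of list members that rose or fell, given below, stand beside these 19.7% of all genes each way. In bulk tissue, fewer cells of a type and less RNA per cell cannot be told apart, which holds for every gene below.

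**Figure D1:**
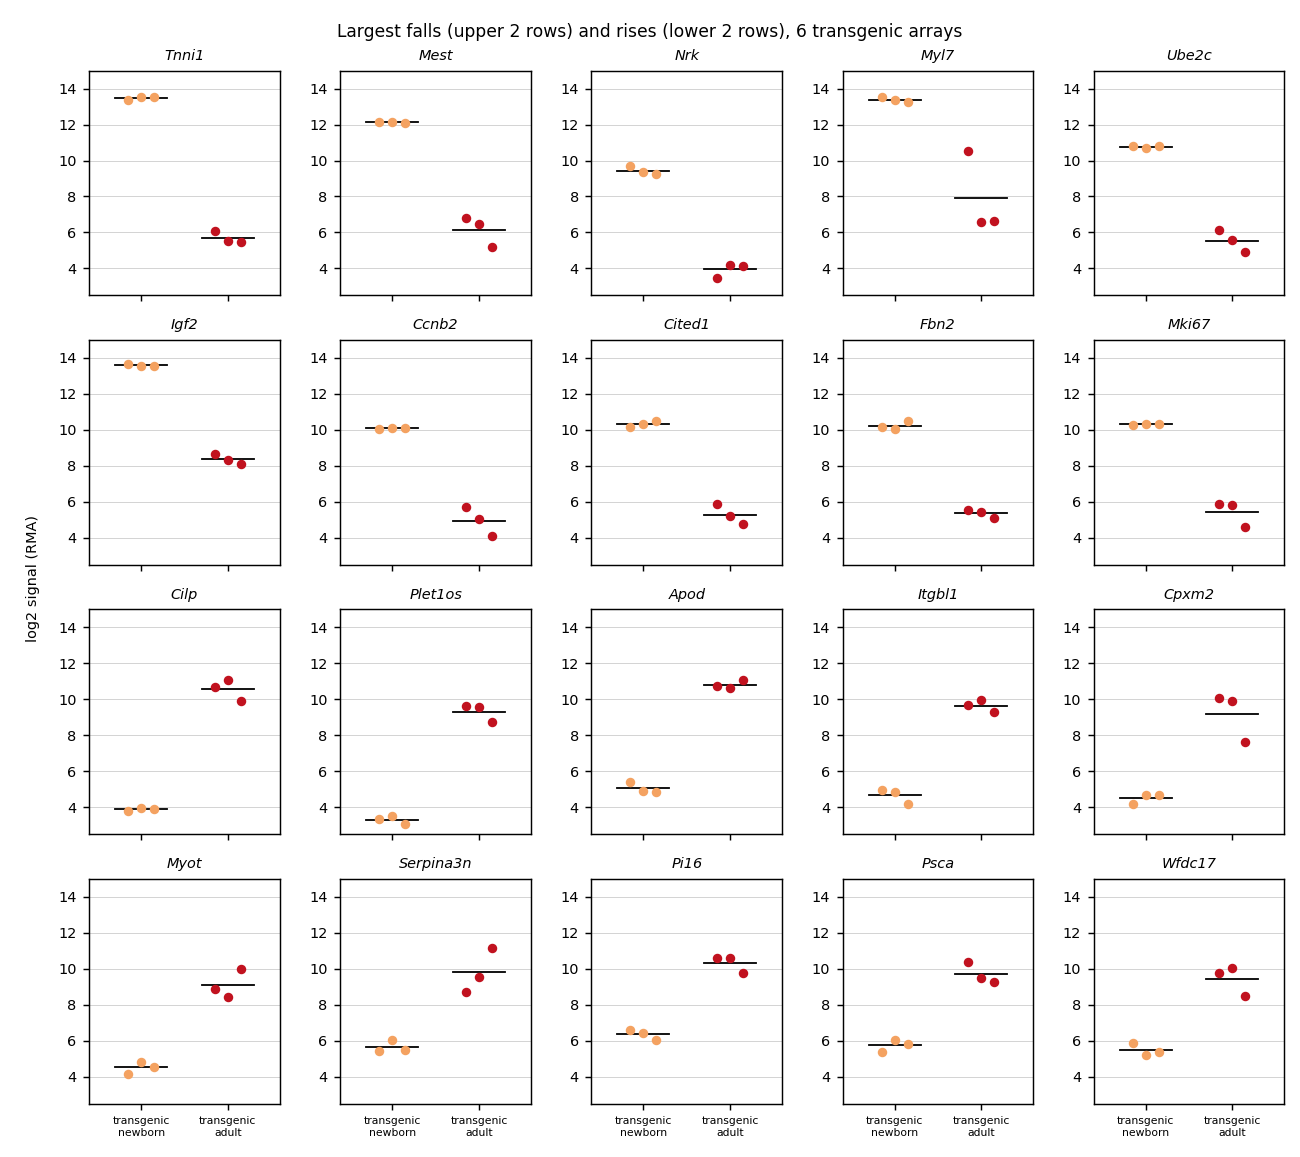
Log2 signal (vertical axis, RMA values) of the 10 genes that fell most and the 10 that rose most in transgenic hearts, for 3 newborn and 3 adult arrays each; points are arrays and bars group means. Newborn and adult arrays do not overlap for any of the 20 genes, and Myl7 has 1 adult array (10.54) far above the other adults (6.58 and 6.62).

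Tnni1, the slow skeletal troponin I that fetal heart muscle uses before cardiac troponin I, fell most. It read 13.39, 13.52 and 13.54 in newborns and 6.09, 5.51 and 5.48 in adults. Every adult array was at least 7 log2 units below every newborn array, and the fitted change was -7.79 (SE 0.16, limma adjusted p = 9.03e-10), a 221-fold loss. Tnni3, the cardiac form that takes its place in the sarcomere, was already at 13.44 to 13.54 in newborns and read 13.50 to 13.52 in adults (0.01, adjusted p = 0.907). Of 15 fetal, skeletal and smooth muscle contractile isoforms measured, 9 fell and 1 rose, against 19.7% of all genes in either direction. The falls included Tnnt1, slow skeletal troponin T (-1.69, SE 0.13), Myl9, a smooth muscle myosin light chain (-2.90, SE 0.23), and the smooth muscle protein calponin, Cnn1 (-2.42, SE 0.19). Acta1, skeletal actin, was the member that rose, from 11.56, 11.73 and 11.75 in newborns to 13.58, 13.25 and 13.70 in adults (1.83, SE 0.29, adjusted p = 0.000698). Its adult arrays were all above its newborn arrays. Myh7, the slow myosin heavy chain of the fetal ventricle, read 13.74, 13.95 and 13.85 in newborns and 12.86, 13.08 and 12.93 in adults. These groups do not overlap, yet the change did not pass (-0.89, SE 0.53, adjusted p = 0.203), since the shared spread includes control adults at 12.10, 9.45 and 9.58. Tnni3, Acta1 and Myh7, like Myl2, Tnnt2 and the sex and nuclear RNA checks, were chosen for naming after their values were seen.

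Growth genes of the fetus fell steeply. Igf2, the fetal insulin-like growth factor, read 13.64, 13.56 and 13.56 in newborns and 8.64, 8.32 and 8.12 in adults, a 37.3-fold loss (-5.22, SE 0.23, limma adjusted p = 9.75e-08). Mest, an imprinted gene of the alpha/beta hydrolase fold family, went from 12.15, 12.12 and 12.10 to 6.82, 6.45 and 5.17 (-5.98, SE 0.34). Both sets of adult arrays lay far under their newborn arrays, with adult replicate 3 lowest. Of 24 imprinted and oncofetal growth genes measured, 14 fell, 12 of them over 2-fold, and 1 (Impact) rose. The list's median change was -0.94, beside 0.09 over all genes. Dlk1, a Notch-related ligand of fetal tissues, fell by 4.00, the zinc finger gene Plagl1 fell by 3.78, the architectural chromatin gene Hmga2 fell by 2.54 and Grb10, an adaptor that restrains insulin and IGF receptors, fell by 2.08. Grb10, Impact and Lin28b were named after their values were seen. Lin28b read 2.48 to 2.65 on all 6 arrays. Nrk, a kinase known from placenta and embryo, fell by 5.49 (SE 0.22), and Cited1, a transcriptional coactivator, fell by 5.05 (SE 0.25).

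Genes of cell division fell. Of 46 measured cell cycle and mitosis genes, 41 fell (background 19.7%), 39 of them over 2-fold, and 0 rose; 5 did not pass. Their median change was -3.30. Averaged over the list, newborn arrays read 8.40 to 8.50 and adult arrays 5.12 to 5.84. Mki67, the proliferation marker Ki-67, read 10.25, 10.34 and 10.33 in newborns and 5.87, 5.80 and 4.60 in adults, a 29.4-fold loss (-4.88, SE 0.36, limma adjusted p = 3.25e-06). Ccnb2, a mitotic cyclin, went from 10.06, 10.11 and 10.10 to 5.70, 5.03 and 4.08 (-5.15, SE 0.33). Adult replicate 3 was again the lowest array for both genes, and newborn arrays differed by no more than 0.09. Ube2c, which supplies ubiquitin to the anaphase-promoting complex, fell by 5.22, the kinesin Kif20a fell by 4.55, the spindle checkpoint kinase Bub1 fell by 4.57, the cytokinesis factor Ect2 fell by 4.09 and the mitotic kinase Plk1 fell by 3.32. At an unadjusted p under 0.05 the limma counts were 42 lower and 0 higher. The count of falling members was 39 to 41 when any 1 of the 11 arrays was left out. Cyclin D genes, and Cdk1, Mcm5 and Mcm6 below, were named after their values were seen. Ccnd1 read 9.86, 9.70 and 9.76 in newborns and 9.85, 9.67 and 7.98 in adults (-0.61, adjusted p = 0.275). Ccnd2 read 10.86 to 10.93 and 10.51 to 10.90 (-0.13, adjusted p = 0.419). Ccnd3 fell, from a mean of 9.58 to adult values of 8.61, 8.37 and 7.80 (-1.32, SE 0.20, adjusted p = 0.000552).

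Promoters of these genes are shown because late cell cycle genes are known to carry CCAAT boxes, bound by NF-Y, and a cell cycle homology region, bound by the DREAM and MuvB complexes. Windows of 300 bases, 250 before to 50 after the start, came from RefSeq (build GRCm38.p6) and matched 14453 of the tested genes by symbol; where a gene had several, the first listed was used. Each 28-base stretch below lies before the annotated start and reads 5′ to 3′ on the gene's strand, with the match in capitals. A CCAAT box on the opposite strand shows as ATTGG.
Ccnb2, chr9:70421626-70421653, minus strand: aatacaagccagCCAATcaacgtgcaga
Ccnb2, chr9:70421593-70421620, minus strand: cttccagtctagCCAATgggttgcgcgc
Ccnb2, chr9:70421560-70421587, minus strand: gcgtgcgtctacCCAATagtgcgtcagc
Cdk1, chr10:69352977-69353004, minus strand: agctcagctctgATTGGctcctttgaac
Cdk1, chr10:69352967-69352994, minus strand: tgattggctccTTTGAAcgtctacgtgc
Ube2c, chr2:164769860-164769887, plus strand: agcgagcctttgATTGGctagcgcagcg
Ube2c, chr2:164769889-164769916, plus strand: gagggttgcaaTTCAAAcgcgggcggcg
Mki67, chr7:135716479-135716506, minus strand: tagcgccagaaTTTGAAccgccgttttg

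In Ccnb2 the 3 CCAAT boxes begin 87, 54 and 21 bases before the start, at even steps of 33 bases. The Cdk1 window puts a reversed CCAAT box 80 bases and a cell cycle homology region 71 bases before the start, and Cdk1 encodes the kinase that drives mitosis. In Ube2c the homology region (TTTGAA, here TTCAAA) lies on the opposite strand, 29 bases before the start.

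Over the falling cell cycle members, 34 of 41 had a promoter window. CCAAT on either strand was in 26 of these 34 (76.5%), beside 38.2% of all 14453 windows, and 16 (47.1%) held 2 or more, beside 13.5%. TTTGAA on either strand was in 21 of 34 (61.8%), beside 13.4% of all windows. Of the falling DNA replication genes, 25 had a window, and CCAAT was in 15 of these 25, with 2 or more in 36.0%. E2F elements, searched as TTTCCCGC, TTTGGCGC and TTTCGCGC on both strands, were in 8 of 25 windows (32.0%), beside 2.92% of all windows and 2 of 34 (5.88%) of the mitotic set. TTTGAA was in 3 of 25 windows there. Matches of an element on opposite strands may overlap, and a window was counted once whatever its number of matches.
Mcm6, chr1:128359735-128359762, minus strand: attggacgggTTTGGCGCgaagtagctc
Mcm5, chr8:75109346-75109373, plus strand: cgccaagaacTTTCGCGCcaaaacgtcc

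Shares were lower over the 965 windows of all genes that fell over 2-fold than in the falling cell cycle list for CCAAT (43.0%) and TTTGAA (15.3%). All tested genes stood at 38.2% and 13.4%. E2F elements were in 6.32% of these falling windows. Among the 557 windows of genes that rose over 2-fold CCAAT stood at 39.0% and TTTGAA at 13.8%, near all genes, and E2F elements at 1.08% (6 windows), below the 2.92% of all genes. AAGGTCA, the element of oestrogen related receptors, which drive mitochondrial genes in the heart, was in 3.23% of these windows beside 3.85% of all, and in 0 of the 8 windows found for rising fatty acid and ketone genes. A match is a run of letters and not a measured site, and no binding was measured here.

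**Figure D2:**
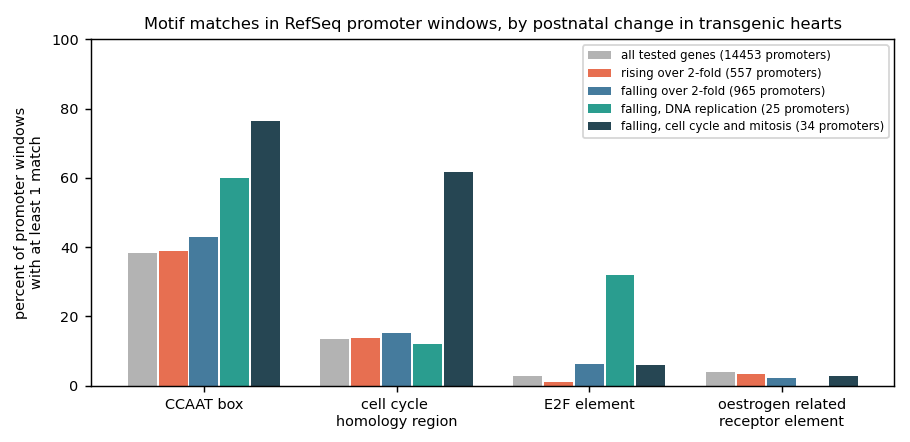
Percent of 300-base RefSeq promoter windows with at least 1 match on either strand (vertical axis) for 4 motifs, over all tested genes and 4 sets of genes that rose or fell in transgenic hearts. The homology region stands at 61.8% in falling cell cycle genes beside 13.4% of all windows, and E2F elements at 32.0% in falling DNA replication genes beside 2.92%.

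Replication genes fell less far than mitotic genes. Of 32 measured, 29 fell, 20 over 2-fold, and 0 rose (1 higher at an unadjusted limma p under 0.05), with a median change of -1.39. Rrm2, the regulated subunit of ribonucleotide reductase, read 9.34, 9.76 and 9.75 in newborns and 4.84, 4.92 and 5.34 in adults (-4.59, SE 0.19, limma adjusted p = 6.93e-08). Its partner subunit Rrm1 fell by 2.07, the licensing factor Cdt1 by 2.80 and the clamp loader subunit Rfc5 by 1.98. Inhibitors of the cycle did not mirror this: 9 of 18 fell and 3 rose, 1 rising without adult replicate 3. Cdkn1c, the imprinted inhibitor p57, fell by 2.55 (SE 0.27). Ccng1, a p53 target, rose from 10.74 to 10.79 in newborns to 12.12 to 12.34 in adults (1.45, SE 0.12).

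Of 31 measured chromatin and lamina genes, which include high mobility group proteins, linker histones, lamina proteins, heterochromatin proteins and some chromatin enzymes, 16 fell and 0 rose (18 and 1 at an unadjusted limma p under 0.05), with a median of -0.50. With the mean of probe sets 14 fell and 2 rose. Hmgb2, a high mobility group protein of dividing cells, read 10.52, 10.86 and 10.93 in newborns and 7.66, 7.36 and 7.71 in adults (-3.19, SE 0.16). Lmnb1, lamin B1, fell by 2.42 and the Polycomb methyltransferase gene Ezh2 fell by 2.18. Tmpo, which encodes lamina-associated polypeptides, fell by 1.90 with its chosen probe set, 3 of its other probe sets fell too and 1 rose. Among the 121 named and changed genes with several probe sets, it was the only 1 with a probe set called in the opposite direction. For 98 of the 121 another probe set was called in the same direction, and for the rest none was. In Dlk1, Aldoc and Cacna1h, for instance, the other probe set did not pass (0.17, -0.07 and -0.32). The same direction did not mean the same size. In Apod, Pi16, Sln and Bub1 the other probe set changed by 1.27, 1.2, -0.45 and -1.22, beside 5.76, 3.98, -4.88 and -4.57 for the chosen one. In Bdh1 and Fbn2 it changed by 3.87 and -4.98, beside 3.90 and -4.88.

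Of 28 cardiac transcription factors 14 fell and 0 rose (16 and 1 at an unadjusted p under 0.05), and 9 fell and 2 rose with the mean of probe sets. The Notch effector Hey2 went from 7.95, 8.21 and 8.53 in newborns to 4.64, 4.61 and 4.28 in adults (-3.72, SE 0.18, adjusted p = 2.29e-07 by limma), and the ventricular factor Irx4 fell by 1.75. Gata6 fell by 2.07 (SE 0.46), with adult replicate 3 at 10.33 and the other adults at 8.42 and 8.58. Without adult replicate 3 of both genotypes 20 of the 28 fell. Of 21 splicing regulators 12 fell and 3 rose, 0 rising without adult replicate 2, and the polypyrimidine tract protein Ptbp1 fell by 1.03 and Hnrnpa1 fell by 1.34.

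In calcium handling 12 of 25 members fell and 4 rose (19.7% of all genes each way, so the rising share is below that of all genes), 8 falling without newborn replicate 1. The T-type calcium channels of immature heart muscle fell, with changes of -2.35 for Cacna1h and -1.56 for Cacna1g. The calcium-binding protein S100a1 rose by 1.71 (SE 0.15), and Hrc, a calcium store protein of the sarcoplasmic reticulum, by 1.77 (SE 0.10). Atp2a2, the calcium pump SERCA2, read 13.80 to 13.82 in newborns and 13.51 to 13.78 in adults (-0.15, adjusted p = 0.275); it was looked up after the list's values were seen. Of 23 channel and connexin genes 10 fell and 4 rose, the latter again under the share of all genes, 2 rising without newborn replicate 1. Kcne1, an accessory subunit of slow potassium channels, fell from 10.02, 10.30 and 10.40 to 7.39, 7.07 and 5.23 (-3.68, SE 0.53), and Kcnh2, which encodes the rapid delayed rectifier, fell by 1.46.

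Atrial muscle genes fell in these ventricular samples, 9 of 10 measured, with a median of -2.35. Myl7, the atrial regulatory light chain, read 13.52, 13.39 and 13.25 in newborns, above 13 on each array, and 10.54, 6.58 and 6.62 in adults (-5.47, SE 0.92, limma adjusted p = 0.00104). Sln, sarcolipin, read 11.80, 11.63 and 11.22 against 9.99, 4.82 and 5.20 (-4.88, SE 1.11, adjusted p = 0.00602). Adult replicate 1 was the high array for both. Summed as a list mean, atrial markers read 9.09 to 9.51 in newborns and 6.30 to 7.76 in adults. Newborn ventricle is known to express some of these genes, and the part of atrial tissue in each sample was not tested.

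Epicardial and mesothelial markers fell, all 10 of 10 measured, with a median of -1.80. Msln, mesothelin, read 8.06, 7.43 and 7.37 in newborns and 4.59, 4.05 and 4.06 in adults (-3.39, SE 0.20, limma adjusted p = 9.05e-07). The mesothelial uroplakin Upk3b fell by 3.87 and the epicardial factor Tbx18 by 2.04. Without both adult replicate 3 arrays 9 of 10 fell. Collagens and their cross-linking enzymes followed, with 14 of 30 falling and 3 rising (median -0.86; 5 rose without adult replicate 3). Col1a1, the main fibrillar collagen chain of fibroblasts, read 11.44, 11.43 and 11.14 in newborns and 8.73, 8.89 and 8.12 in adults (-2.76, SE 0.41). The basement membrane collagens Col18a1 and Col4a2 fell by 2.70 and 1.25. Fbn2, the fetal fibrillin of microfibrils, fell by 4.88 (SE 0.15). Col8a1, a short-chain collagen of vessels and scars, went the other way, from 8.05, 7.18 and 6.74 to 11.12, 11.37 and 10.58 (3.70, SE 0.38).

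Of all genes, Cilp rose most. Cilp, a matrix protein that binds TGF-beta, read 3.80, 3.97 and 3.90 in newborns and 10.71, 11.10 and 9.93 in adults (6.69, SE 0.38, limma adjusted p = 6.1e-07). Its newborn signal was as low as that of skeletal muscle and lung markers in these hearts, so the rise is a lower bound. Apod, the lipid carrier apolipoprotein D, went from 5.38, 4.91 and 4.87 to 10.75, 10.64 and 11.07 (5.76, SE 0.16, adjusted p = 5.64e-09). Adult arrays of both genes lay over 5 log2 units above the newborn arrays. Itgbl1, an integrin beta-like protein, rose by 4.99, the carboxypeptidase-like Cpxm2 by 4.68, Pi16, a marker of adult fibroblasts, by 3.98 and the secreted Crispld2 by 3.72. Cpxm2 had adults at 10.07, 9.89 and 7.63, adult replicate 3 being the low array. Serpina3n, a protease inhibitor of the acute phase, had that array highest instead: 8.70, 9.52 and 11.15 in adults over 5.43 to 6.02 in newborns. Of 45 other matrix and TGF-beta genes 14 rose and 13 fell, and the median was -0.01. Fibroblast markers were divided, 4 of 12 rising (Dcn by 1.38, Gsn by 1.66) and 3 falling, 6 rising without adult replicate 3, and their list mean was 9.55 to 9.95 in newborns and 9.90 to 10.42 in adults. The antisense RNA Plet1os rose by 6.00 (SE 0.34), also from a low newborn signal (3.06 to 3.49). As an antisense gene it shares sequence with its partner locus, and which strand its probes read is not given here.

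**Figure D3:**
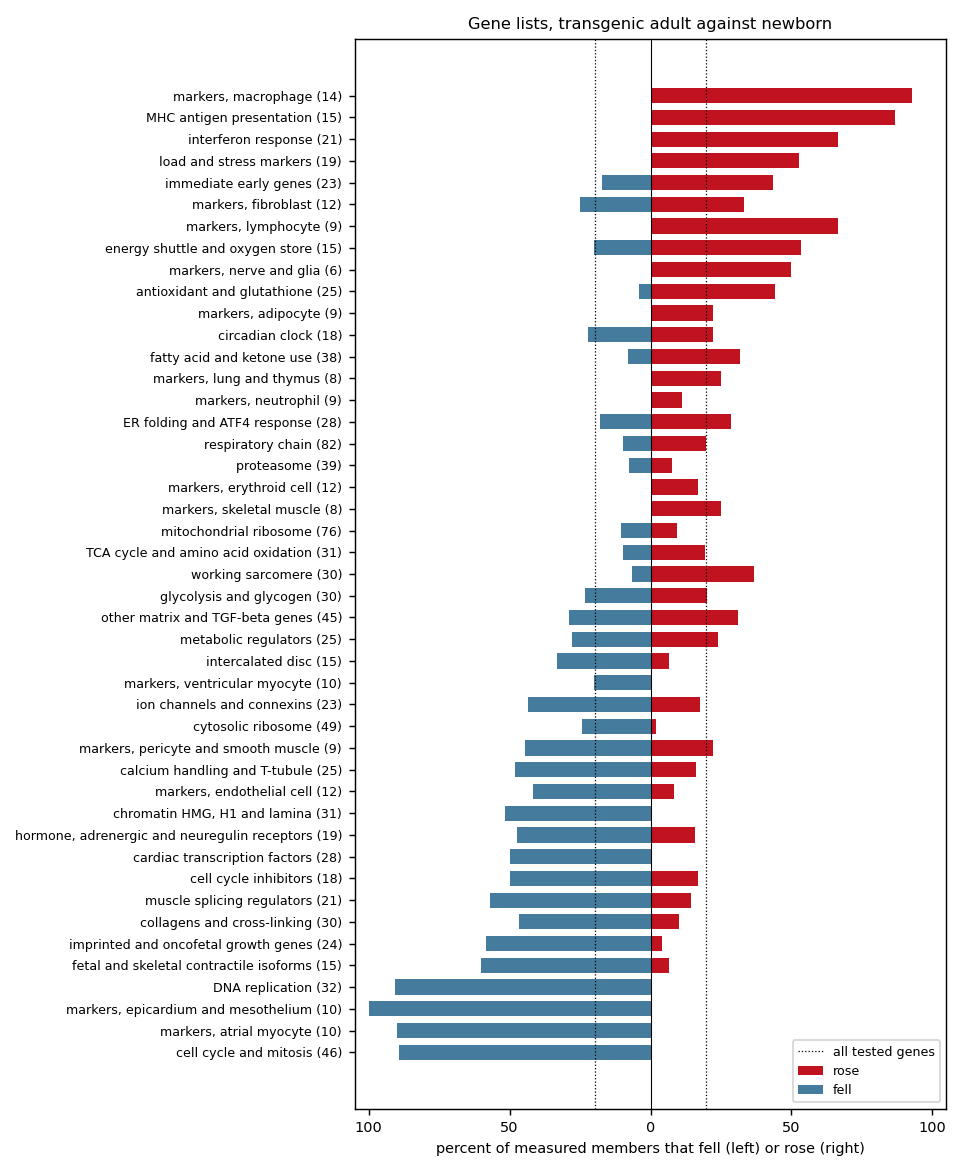
Percent of the measured members of 45 gene lists that fell (left) or rose (right) between newborn and adult transgenic hearts, ordered by median change; the number measured is in brackets and dotted lines mark all tested genes (19.7% each way). Cell cycle, epicardial, atrial and replication lists lie at the falling end, and macrophage, antigen presentation and interferon lists at the rising end.

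Macrophage genes rose together. Of 14 markers 13 rose, 12 over 2-fold, and 0 fell, with a median of 2.04; at an unadjusted limma p under 0.05 the counts were also 13 and 0. Lyz2, lysozyme, read 8.56, 8.38 and 8.23 in newborns and 11.79, 11.67 and 10.97 in adults (3.09, SE 0.19, limma adjusted p = 9.88e-07). The complement genes C1qa, C1qb and C1qc rose by 2.36, 2.13 and 2.43, and the lipopolysaccharide coreceptor Cd14 by 2.91. Adult replicate 3 was the lowest adult array for these 5 genes and still above every newborn array. Antigen presentation followed, with 13 of 15 rising and 0 falling, also at an unadjusted p. H2-Aa, a class II chain, went from 5.78, 5.61 and 6.27 to 9.52, 9.04 and 7.66 (2.85, SE 0.44), and H2-K1, a class I chain, rose by 1.61. Of 21 interferon response genes 14 rose and 0 fell (18 and 0 at an unadjusted p), among them Iigp1 (2.46), Ifit1 (2.79) and Ifit3 (2.20). The immunoproteasome subunits Psmb8 and Psmb9 rose by 1.61 and 1.54, while the proteasome list as a whole had 3 of 39 rising and 3 falling, 6 rising without adult replicate 2. Lymphocyte markers rose in 6 of 9 cases but stayed low (list mean 4.36 to 4.44 in newborns, 4.69 to 5.10 in adults), and 2 of them rose when adult replicate 1 was left out. Of 9 neutrophil markers 1 rose, Lcn2, lipocalin 2, by 3.71 (SE 0.62), with 9.56 in adult replicate 3. Skeletal muscle and lung or thymus markers stayed at list means of 3.90 to 4.30 on all 6 arrays.

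Of 30 working sarcomere genes 11 rose and 2 fell (5 fell without adult replicate 3 and 6 after cyclic loess scaling), and the main filament genes did not pass: Myh6, the adult myosin heavy chain, read 14.01 to 14.03 in newborns and 13.73 to 13.95 in adults, and Tnnt2, cardiac troponin T, had a change of 0.01 (adjusted p = 0.922). The risers were Myom2 and Myom3 of the M-band, Tcap, Myoz2 and Csrp3 of the Z-disc, the intermediate filament gene Des, Lmod2, the chaperone Cryab, the ubiquitin ligase subunit Fbxo32, Cavin4 of caveolae and Mlip, which encodes a lamin-interacting protein. Tcap, which caps titin at the Z-disc, went from 10.33, 10.42 and 10.42 to 12.68, 12.36 and 12.74 (2.20, SE 0.19, limma adjusted p = 1.01e-05). Lmod2, a thin filament nucleator, rose by 1.94 and the M-band protein Myom2 by 0.79. Myot, the Z-disc protein myotilin, rose from 4.16, 4.83 and 4.54 to 8.89, 8.45 and 10.01 (4.61, SE 0.37). Tuba8, an alpha tubulin of striated muscle, rose by 3.73. Of 15 energy shuttle and oxygen store genes 8 rose and 3 fell, among them Ckmt2, mitochondrial creatine kinase, from 11.33, 11.70 and 11.53 to 13.47, 13.41 and 13.50 (1.94, SE 0.13), and Mb, myoglobin, by 0.60.

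Of 38 fatty acid and ketone genes 12 rose and 3 fell (19.7% of all genes each way), and the median was 0.24. Bdh1, which oxidises the ketone body hydroxybutyrate, rose 15-fold, from 6.18, 6.35 and 6.55 to 9.67, 10.46 and 10.66 (3.90, SE 0.27, limma adjusted p = 2.48e-06). Plin5, the lipid droplet coat of oxidative tissue, rose by 2.45, Ech1, a peroxisomal and mitochondrial isomerase, by 1.22 and Oxct1, which activates ketone bodies, by 0.72. Acot1, a cytosolic acyl-CoA thioesterase, fell by 3.17 (SE 0.43). Acaa2, the last enzyme of the beta-oxidation spiral, read 11.66, 11.60 and 11.75 in newborns and 11.11, 10.77 and 11.11 in adults, a fall of 0.67. Without both adult replicate 3 arrays 12 rose and 7 fell. Of 82 respiratory chain genes 16 rose (16 of 82 is near the 19.7% of all genes) and 8 fell, with 26 rising without both adult replicate 3 arrays and 8 without newborn replicate 1. Cox7a1, the muscle isoform of a cytochrome oxidase subunit, rose by 1.05 and Cox6a1, the broadly expressed isoform of another, fell by 0.97. In the TCA cycle and amino acid oxidation list 6 of 31 rose, near the 19.7% of all genes, and 3 fell, 1 falling without newborn replicate 2. Of 30 glycolysis and glycogen genes 6 rose and 7 fell, near the 19.7% of all genes each way (3 rising without newborn replicate 1 and 3 falling without newborn replicate 3), with Aldoc, aldolase C, falling by 2.66 and the hexokinase Hk2 rising by 1.07. Mitochondrial ribosome genes, 7 of 76 rising and 8 falling, had 29 rising without both adult replicate 3 arrays and 3 without transgenic adult replicate 1. Cytosolic ribosome genes fell in 12 of 49 cases, near the 19.7% of all genes, 7 without newborn replicate 1 and 26 after cyclic loess scaling. Among metabolic regulators, Rxrg, a retinoid X receptor, rose by 2.63, and Ppargc1b, a PGC-1 coactivator, fell by 1.70 (SE 0.35). Of 25 measured, 6 rose and 7 fell, beside 19.7% of all genes each way, and 3 fell without newborn replicate 2.

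Antioxidant genes rose in 11 of 25 cases and 1 fell, 3 falling without adult replicate 3. Sod3, extracellular superoxide dismutase, rose by 2.07, and the quinone reductase Nqo1 went from 6.65, 6.74 and 6.58 to 8.53, 8.67 and 9.26 (2.16, SE 0.28, limma adjusted p = 0.000175). Serine synthesis genes of the ATF4 list fell, with changes of -2.67 for Psat1 and -2.10 for Phgdh. That list as a whole had 8 of 28 rising and 5 falling, beside 19.7% of all genes each way. Immediate early genes rose in 10 of 23 cases and fell in 4. Junb rose by 1.18 and Nr4a1 by 1.30, while Myc fell by 1.77; 5 members rose without newborn replicate 1, and 2 fell without newborn replicate 2. Load and stress markers rose in 10 of 19 cases and 0 fell, also at an unadjusted limma p, and 1 fell after cyclic loess scaling. Ankrd23, a titin-bound ankyrin repeat protein that responds to stretch, went from 7.38, 7.67 and 7.71 to 11.69, 11.58 and 11.37 (3.96, SE 0.15, adjusted p = 5.15e-08). Its relative Ankrd1 rose from 12.89 to 13.13 in newborns to 13.83 to 13.89 in adults (0.90, SE 0.21). Nppa, atrial natriuretic peptide, read 13.83, 13.82 and 13.70 in newborns and 14.18, 14.05 and 14.06 in adults, near the top of the scale (0.31, SE 0.19, adjusted p = 0.2).

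The postnatal change of transgenic hearts was set against that of control hearts with a test of the difference between them. No array is shared by these changes. Across genes the transgenic and control changes correlated at 0.85, as a description, and of the 1216 genes that fell over 2-fold in transgenic hearts 1099 were also among the 3288 genes (18.1%) that fell in controls. Of the 728 risers, 507 were among the 2718 (14.9%) that rose in controls. The difference passed for 125 genes (0.687%): the change was higher in transgenic hearts for 81 (0.445%) and lower for 44 (0.242%). Of the 81, 29 rose in transgenic hearts and did not pass in controls, 17 rose in the former and fell in the latter, 17 did not pass in transgenic hearts and fell in controls, 12 fell in both and 6 rose in both. Of the 44, 15 rose in controls and did not pass in transgenic hearts and 15 rose in both, 7 fell in transgenic hearts and rose in controls, 4 fell in transgenic hearts and did not pass in controls, and 3 fell in both.

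**Figure D4:**
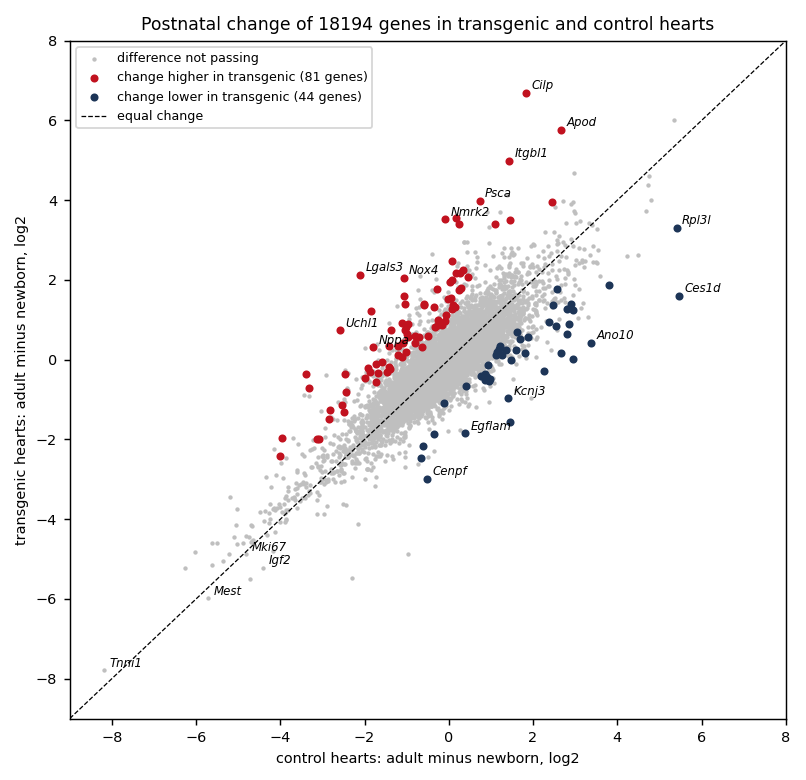
Adult minus newborn log2 change of 18194 genes in control hearts (horizontal axis) and transgenic hearts (vertical axis); coloured points are genes whose difference passed at a limma adjusted p under 0.05 and the dashed line marks equal change. Tnni1, Mest and Igf2 lie near the line and did not pass, Cilp and Apod lie above it, and Ces1d and Rpl3l below it.

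For the falls of the fetal programme few differences passed. By limma 0 of 32 replication genes, 0 of 24 imprinted genes and 0 of 10 epicardial markers were called for a difference (1, 5 and 0 at an unadjusted p under 0.05). Among fetal and skeletal contractile isoforms 1 of 15 was called, and among atrial markers 1 of 10 (7 and 5 unadjusted). Over all genes 0.687% were called, and 1819 of 18194 had an unadjusted p under 0.05. With so low a share of all genes, a count of 0 in a short list does not show that the changes were equal. Cenpf, a kinetochore protein, was the called gene among the 46 of the cell cycle. It fell in transgenic hearts from 8.94, 8.97 and 8.84 to 6.01, 6.38 and 5.42, while control adults read 8.52, 8.28 and 8.58 and control newborns 9.15 and 8.78 (difference -2.47, SE 0.32, limma adjusted p = 0.00713). With all its probe sets averaged, the Cenpf difference of postnatal change was -0.88 and did not pass (limma adjusted p = 0.179). Without control newborn replicate 1 or 2 the adjusted p was 0.0526 or 0.0514.

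Of the 45 other matrix and TGF-beta genes, 8 were called for a difference, all higher in transgenic hearts, beside 0.445% of all genes. The list was chosen with earlier results of these data known, so its share of called genes is a description only. Cilp rose by 6.69 in transgenic and by 1.84 in control hearts (difference 4.84, SE 0.57, limma adjusted p = 0.00533). Postn, periostin, a protein of fetal and injured matrix, read 12.47, 12.44 and 12.21 in transgenic newborns and 12.09, 12.45 and 11.53 in transgenic adults, which overlap. In controls it went from 12.23 and 12.23 to 9.27, 7.89 and 9.39 (difference 3.04, SE 0.52, adjusted p = 0.0287). Timp1, an inhibitor of matrix metalloproteinases, rose by 1.22 in transgenic hearts and fell by 1.85 in controls. Ccn2, connective tissue growth factor, rose by 1.40 and fell by 1.03, and Tgfb3, a TGF-beta ligand, rose by 0.90 and fell by 0.97. The microfibril genes Mfap4 and Mfap5 had differences of 2.67 and 2.39 and the matricellular Ccn5 of 3.38. Over the whole list the median change was -0.01 in transgenic and -0.97 in control hearts.

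Differences were also called outside the matrix list, in heart muscle genes and in others. Nppa fell by 1.80 in controls, to 12.02, 11.21 and 12.01, and stayed at 14.05 to 14.18 in transgenic adults (difference 2.12, SE 0.28, limma adjusted p = 0.00875). Ankrd23 had a difference of 1.5 and the smooth muscle gene Cnn1 of 1.59. Lgals3, galectin-3, rose from 8.16, 8.16 and 7.17 to 10.13, 10.05 and 9.71 in transgenic hearts and fell by 2.11 in controls (difference 4.25, SE 0.43, adjusted p = 0.00305). Nmrk2, the muscle kinase that makes NAD from nicotinamide riboside, rose from 7.28, 7.12 and 7.34 to 11.00, 11.52 and 9.77 in transgenic hearts and read 6.56 to 7.35 in control adults (difference 3.61, SE 0.54). Uchl1, a ubiquitin hydrolase of neurons, differed by 3.32, the oxidase Nox4 by 3.13, the potassium channel gene Kcnj14 by 3.17 and Psca, a surface antigen, by 3.25. Apod and Itgbl1 rose in both genotypes, by 3.10 and 3.55 more in transgenic hearts. Myh7 had a difference of 2.56 (SE 0.80) that did not pass (adjusted p = 0.237), and the atrial Myl7 of -3.17 (SE 1.38, adjusted p = 0.47). Atrial markers in control adults varied too, with Myl7 at 10.25, 10.60 and 12.59.

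Several metabolic and late muscle genes rose less than in controls. Ces1d, a carboxylesterase that hydrolyses stored lipid, rose from 5.11 to 5.32 in transgenic newborns to 7.17, 6.88 and 6.43 in adults, and by 5.47 in controls (difference -3.87, SE 0.37, limma adjusted p = 0.0017). Rpl3l, the muscle form of ribosomal protein L3 that appears after birth, went from 5.05, 5.45 and 5.29 to 8.26, 8.85 and 8.61 while control adults read 10.60, 11.51 and 11.11 (difference -2.10, SE 0.33, adjusted p = 0.0196). Transgenic adults were above transgenic newborns for both genes and below every control adult. Kcnj3, an inward rectifier subunit of atrial muscle, fell by 0.97 and rose by 1.40 in controls (difference -2.37, SE 0.29). None of its 3 other probe sets passed for the transgenic change (-0.86 to 0.02). Atrial markers, Kcnj3 among them, had list means of 7.91 to 9.04 in control adults and 6.30 to 7.76 in transgenic adults. Ano10, an anoctamin, read 7.13 to 7.27 in transgenic newborns, 7.52 to 7.74 in transgenic adults and 10.09 to 11.39 in control adults (difference -2.96, SE 0.41). Ttll1, a tubulin polyglutamylase subunit, and Tbc1d10c, a Rab and Ras pathway regulator, did not pass in transgenic hearts and differed by -2.91 and -2.48. Egflam, the matrix protein pikachurin, fell by 1.85 (difference -2.24), the amino acid carrier Slc36a2 differed by -2.17 and Sybu, a kinesin adaptor, by -1.95. In the oxidation lists the differences called were all lower: Ces1d, Acaa2 (-1.08) and, for branched-chain amino acids and propionate, Mmut (-1.11), Mccc2 (-0.94) and Pcca (-0.92). Of the 38 fatty acid and ketone genes 25 were called rising in controls and 12 in transgenic hearts, with medians of 0.71 and 0.24. For the respiratory chain these counts were 34 and 16 of 82, the latter being 26 without both adult replicate 3 arrays and 8 without transgenic newborn replicate 1. None of the 82 was called for a difference by limma (0 of 82, and 7 at an unadjusted p under 0.05), and counts in each genotype do not test one. Hrc and the chaperone Hspa5 rose less than in controls (-0.80 and -0.87), and Pfkp, a phosphofructokinase, read 9.77 to 10.10 on all 6 transgenic arrays while it fell by 1.21 in controls (difference 1.32).

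**Figure D5:**
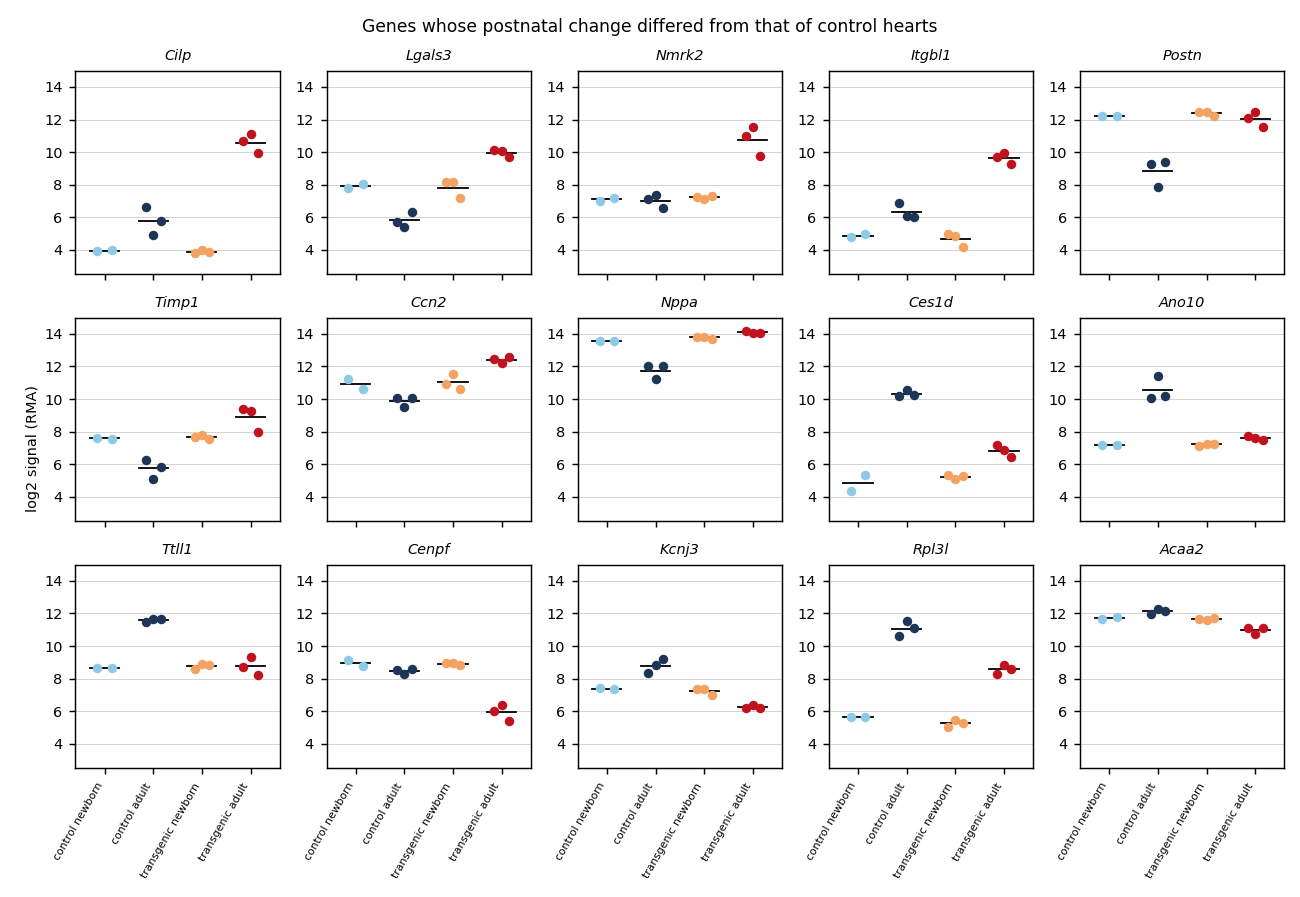
Log2 signal (vertical axis) of 15 genes whose postnatal change differed between transgenic and control hearts, for all 11 arrays in 4 groups; points are arrays and bars group means. Transgenic adults stand above control adults for Cilp to Nppa and below them for Ces1d to Acaa2.

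The list of differences rests on few newborn controls. Leaving out control newborn replicate 1 left 4 genes higher and 2 lower, and leaving out control newborn replicate 2 left 27 and 8. Other arrays moved a count by over 1.5 times too: 392 and 148 without transgenic adult replicate 3, 53 and 26 without transgenic adult replicate 1, 40 and 19 without control adult replicate 2, 112 and 90 without control adult replicate 1, and 50 and 23, 31 and 17, and 25 and 14 without transgenic newborn replicates 1, 2 and 3. Apod, Lgals3, Uchl1 and Ces1d passed without the first of these. Without both adult replicate 3 arrays the counts were 483 and 228. The spread was estimated over all 4 groups, and adult arrays varied more than newborn arrays.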

How the data were processed

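The authors' deposited table holds log2 RMA values of 45101 Affymetrix mouse whole-genome probe sets on 11 arrays, per the file headers and the labels; per the submitters' processing notes RMA, the affy package and limma were used, with no version given. These values were used as deposited. Probe sets with exactly 1 gene symbol (34958; 932 had several and 9211 none) were kept, and 34754 of them matched RefSeq by gene ID. Each of 18194 genes was represented by its probe set with the highest mean over the 11 arrays. A group-means model was fitted to all 11 arrays in limma 3.58.1 (R 4.3.3), with Benjamini-Hochberg adjustment over all genes and a threshold of 0.05; the difference of postnatal change was a contrast of the same model. The fit was tested on simulated data. All p-values measure the spread between these arrays, and the number of arrays limits the precision.

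Genes named by rule were Hmgn5, 15 risers and 15 fallers with the largest called change and no overlap of arrays, 10 differences each way, and for every list the 5 lowest p-values and any called difference; clone names were passed over (2 among rising genes and 2 among lower differences). Genes and lists were chosen with earlier results of these data known. Equal replicate numbers did not pair adult and newborn arrays (correlations of -0.09, -0.05 and -0.03). Equal numbers did go together between genotypes for sex within each age, and for Malat1 among adults only. Eif2s3y was high in adult replicate 1 (8.64 transgenic, 8.84 control). In adult replicates 2 and 3 of both genotypes it was low (2.95 to 3.93). Newborn replicate 1 was low (3.2 transgenic, 3.4 control) and newborn replicate 2 high (9.1 and 9.22). Among adults, Malat1 was highest in replicate 3 of both genotypes (13.04 and 12.75). The main model did not use this matching. Alternatives changed the probe set rule, low-value filter, scaling, variance model, covariates and arrays used.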

Additional observations from a re-analysis of the deposited data

Results flagged for a closer look

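The named genes below are given again because their change from newborn to adult, tested as a difference between transgenic and control hearts in limma, passed at an adjusted p under 0.05. Values are the log2 change of transgenic hearts minus that of control hearts. The highest were Cilp (4.84), Lgals3 (4.25), Nmrk2 (3.61), Itgbl1 (3.55), Ccn5 (3.38), Uchl1 (3.32), Psca (3.25), Kcnj14 (3.17), Nox4 (3.13) and Apod (3.10). Further genes with a higher change in transgenic hearts were Timp1 (3.07), Postn (3.04), Mfap4 (2.67), Ccn2 (2.43), Mfap5 (2.39), Nppa (2.12), Tgfb3 (1.88), Cnn1 (1.59), Ankrd23 (1.5) and Pfkp (1.32). The lowest were Ces1d (-3.87), Ano10 (-2.96), Ttll1 (-2.91), Tbc1d10c (-2.48), Cenpf (-2.47), Kcnj3 (-2.37), Egflam (-2.24), Slc36a2 (-2.17) and Rpl3l (-2.10). Further genes with a lower change were Sybu (-1.95), Mmut (-1.11), Acaa2 (-1.08), Mccc2 (-0.94), Pcca (-0.92), Hspa5 (-0.87) and Hrc (-0.80). Causes of these differences were not tested.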

How the results depend on the processing

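Counts of genes varied with the settings, and no named gene's called change reversed under any alternative run. The run on all probe sets read each named gene by its chosen probe set, so it could not show a reversal by another. Another probe set of Tmpo was called in the opposite direction. With 1 array left out in turn, genes rising numbered 2218 to 4384 and falling 2753 to 3706, those over 2-fold 673 to 903 and 1173 to 1366, and genes with a higher or lower postnatal change than controls 4 to 392 and 2 to 148. A filter on low values, which tests fewer genes, gave 2146 rising. Testing all 34958 probe sets gave 5489 probe sets (4359 genes) rising and 5780 (4148) falling, with 1129 (869) and 2160 (1605) over 2-fold, and differences in 59 genes upward and 29 downward. The mean of probe sets gave 59 and 37, of which 53 and 27 were among the 81 and 44. A test against a 1.5-fold change gave 460 rising, 847 falling and 456 rising over 2-fold, with 6 higher and 3 lower differences. Array weights gave 522 higher and 319 lower differences. A factor that marked both adult replicate 3 arrays, which read high in 18S, gave 290 and 204. It held no 18S values, so it did not adjust newborn against adult arrays for that signal. Leaving out both adult replicate 3 arrays gave 483 and 228, and cyclic loess gave 68 lower. The cause was not tested. With the replicate number as a block, 3552 genes rose and 3670 fell, with 81 higher and 45 lower differences, of which 66 and 34 were among the 81 and 44. The 6 transgenic arrays alone gave 2973 and 3349. The median change of all genes was 0.01 after cyclic loess and 0.13 after setting arrays to a common median, against 0.09. Days of age, pooling and dissection of atria are not given in the sources used here. Signals near the top of the scale, such as those of Myl2, may compress differences.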
